A study of Mus musculus with 41 samples.

Results

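MHC class II molecules are cell-surface proteins that hold peptides for CD4+ T cells, and the 7 genes described here make them, load them or switch them on. H2-Aa and H2-Ab1 encode the alpha and beta chains of the I-A molecule, and H2-Eb1 encodes the beta chain of I-E. Cd74 is the invariant chain, which fills the groove of a new class II molecule and steers it to the endosome. H2-DMa and H2-DMb1 encode the chains of H2-DM, which exchanges the remnant of Cd74 for antigen peptides. Ciita is the transactivator that turns this gene set on, mostly after interferon gamma. In the healthy brain, microglia are known for low class II levels that rise in a part of the cells with age, inflammation or neurodegeneration.

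The members were taken by symbol, and all 7 of 7 were found among the 24015 genes of the table. They were followed in 10 groups of BALB/c mice. NPC mice carry the strain label BALB/cNctr-Npc1m1N/J, a model of Niemann-Pick type C disease that lacks working Npc1, the transporter that moves cholesterol out of lysosomes. WT mice carry the label balb/c. Untreated NPC and WT mice were taken at 1, 3, 6 and 9 weeks of age, with 4 libraries in each group and 3 in the oldest NPC group. A treatment arm held NPC mice of 9 weeks after PLX5622, an inhibitor of Csf1r, the receptor kinase on which microglia depend for survival, or as Control, with 5 libraries each. All mice of that arm therefore carry the Npc1 mutation, and no PLX5622-treated WT group was analysed here. The labels give neither the dose and length of the PLX5622 treatment, nor what Control mice received, nor the sex of any mouse. The design text counts mice within each group, so the spread between libraries is the spread between mice. Microglia were cerebellar cells sorted for CD11b and Tmem119 together, and RNA of the whole sorted pool was sequenced. In such bulk RNA, fewer class II-positive cells and less class II RNA per cell cannot be told apart.

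The 41 libraries held 23159093 to 40509603 reads recovered from the table. Npc1 lay between 291 and 787 normalized counts in all untreated NPC, PLX5622 and Control libraries and between 2606 and 7386 in WT libraries, so no library went against its genotype label. The 9 microglia markers summed to between 400782 and 1746450 normalized counts, and the B cell marker Pax5 was at 0 in 40 of 41 libraries. Another B cell marker, Cd79b, lay between 414 and 2152 in all 41. The dendritic cell marker Clec9a was at 0 in 23 libraries, while Flt3 (26.0 to 329), Zbtb46 (103 to 359), Batf3 (195 to 904) and Itgae (32.7 to 807) had reads in all 41. NPC 3w replicate C stood apart from its group, with Apoe, the main lipoprotein of microglia, at 95857 normalized counts and a group mean of 736040. PLX5622 replicate 3 held 52584 normalized counts of the neutrophil granule gene Ngp, and NPC 6w replicates B and C held the most oligodendrocyte and astrocyte RNA of their group. Xist, expressed from the inactive X chromosome of females, lay between 653 and 1133 in PLX5622 replicates 1, 2 and 5 and Control replicates 1 and 5, and at 36.7 or less in the other 36 libraries. Counts and calls of members and of pathway list genes that changed without these libraries are given without them as well.

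Class II genes are classically switched on through short promoter elements, the X box and the Y box, to which the RFX complex and NF-Y bind before Ciita joins them. The promoters of 3 members with and 1 without these letters are shown. No promoter window was available for H2-Ab1, Cd74 and Ciita. Each line is the 120 bases before the transcription start in RefSeq on GRCm38.p6, read 5′ to 3′ on the strand of the gene, with matches to the Y box letters TGATTGG or the X box letters AACNGATG in capitals.
H2-Aa, chr17:34287824-34287943, minus strand: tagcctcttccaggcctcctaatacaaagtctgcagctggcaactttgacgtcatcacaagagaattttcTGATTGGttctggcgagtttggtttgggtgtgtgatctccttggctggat
H2-Eb1, chr17:34305747-34305866, plus strand: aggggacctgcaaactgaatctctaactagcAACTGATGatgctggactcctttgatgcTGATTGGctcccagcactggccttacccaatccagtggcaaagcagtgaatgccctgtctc
H2-DMb1, chr17:34153071-34153190, plus strand: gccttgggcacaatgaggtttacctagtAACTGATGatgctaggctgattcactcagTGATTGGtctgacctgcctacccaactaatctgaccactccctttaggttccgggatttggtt
H2-DMa, chr17:34122712-34122831, plus strand: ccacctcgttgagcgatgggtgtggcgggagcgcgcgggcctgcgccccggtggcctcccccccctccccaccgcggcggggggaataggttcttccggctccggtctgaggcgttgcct
The Y box lay at -50 in H2-Aa, -61 in H2-Eb1 and -63 in H2-DMb1, counted from the start. The X box lay at -89 in H2-Eb1 and -92 in H2-DMb1, and its letters were not found in the H2-Aa window. Neither of the 2 H2-DMa windows in the table held either motif, which says only that these letters are not in these windows. The window whose bases are printed runs from 34122582 to 34122881. It covers 34122634, where Brd2, a gene on the minus strand, starts in GENCODE vM21, and the printed bases lie upstream of that start. Both windows lie within the annotated span of H2-DMa, from 34119541 to 34139101. The motifs were chosen with these sequences in view and searched on both strands of the whole 300 base windows, from 250 before to 50 after each start. The Y box letters were in 7.82% of all 32851 promoter windows of the table, the X box letters in 2.32% and both in 0.186%.

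By reads per kb of annotated exon, the members fell into 3 tiers. The median over the 41 libraries was 2345 normalized counts per kb for Cd74, 1046 for H2-Ab1 and 956 for H2-DMa. It was 185 for H2-DMb1, 105 for H2-Eb1 and 99.8 for H2-Aa. For Ciita it was 0.587. The order holds for these annotated lengths only, and the authors' gene models are not given in the sources used here. The alignment used mm9, a C57BL/6 genome, for BALB/c mice whose class II alleles differ from it, and the effect of those differences on the counts was not tested.

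**Figure D1:**
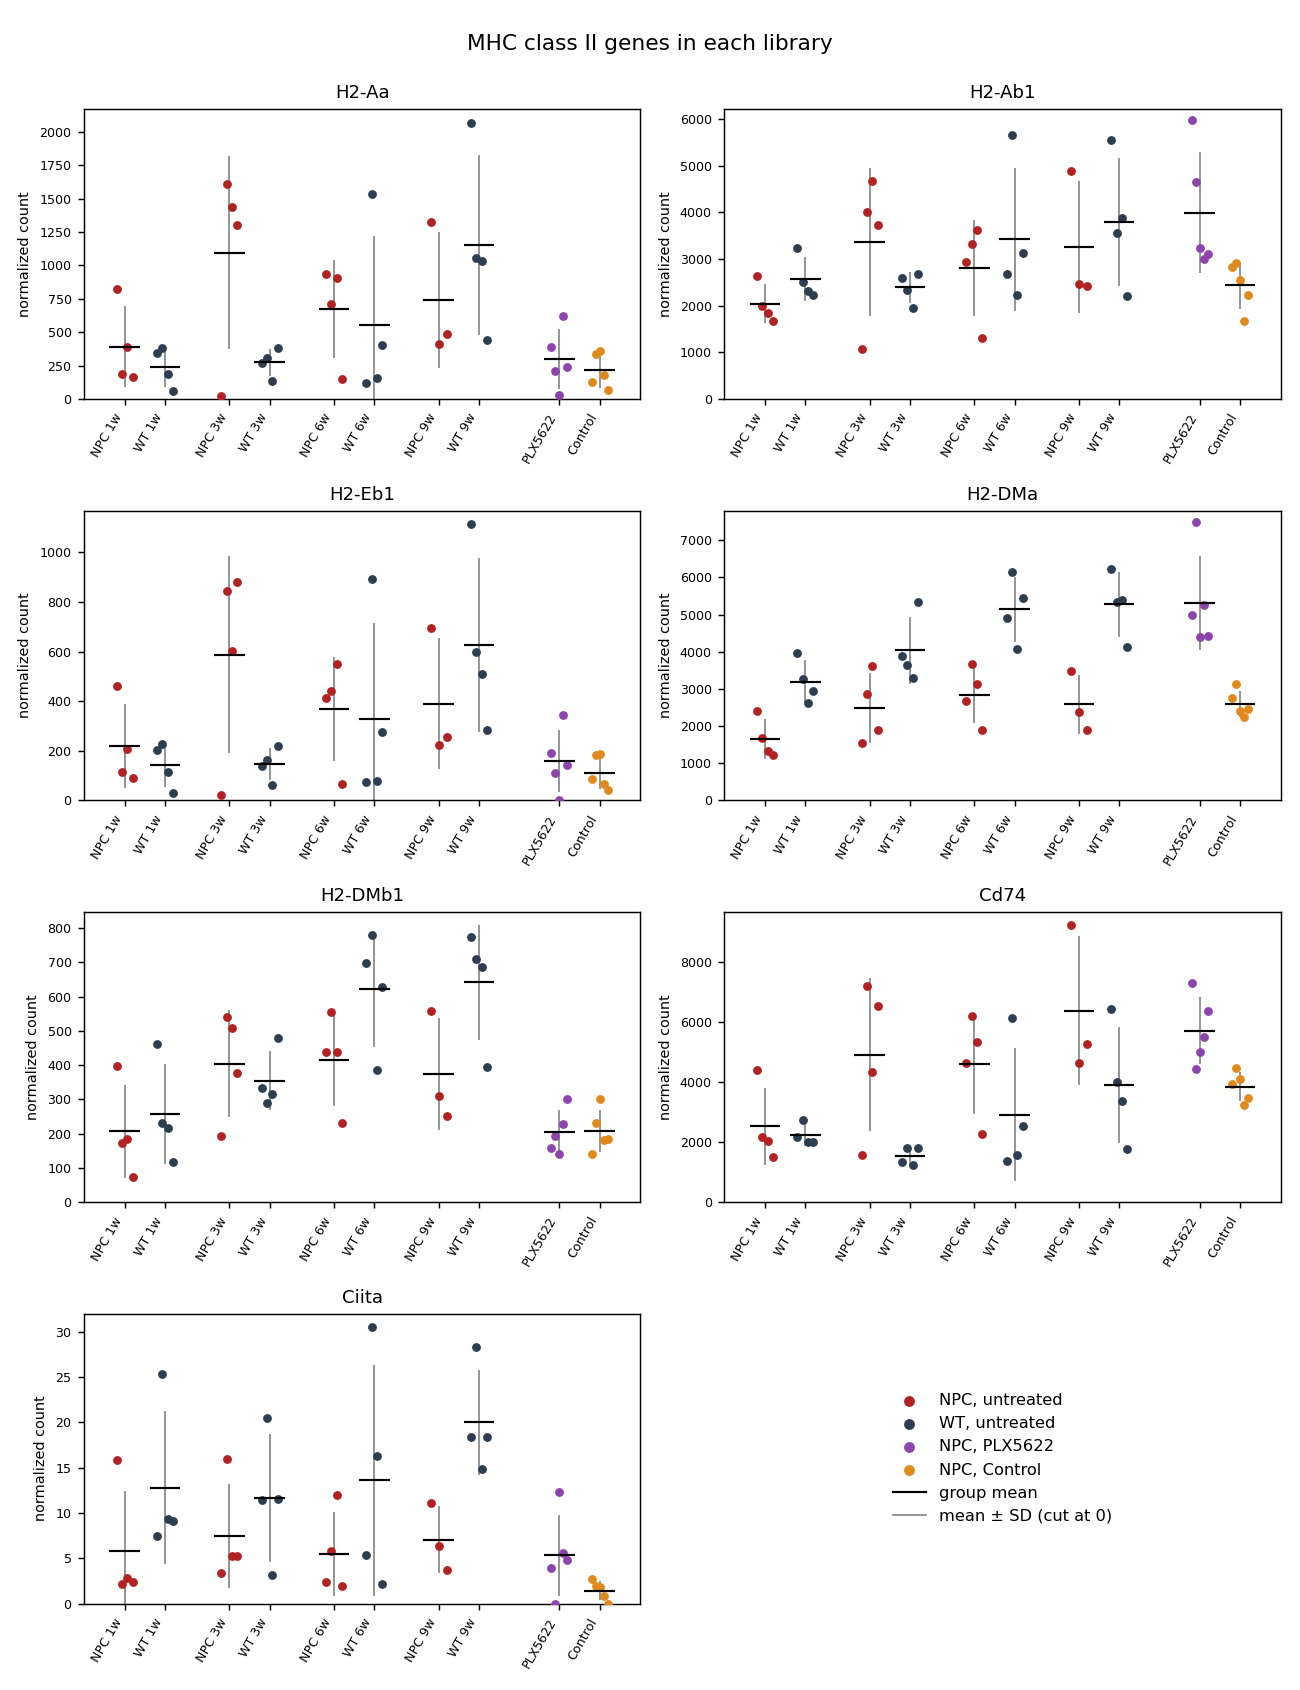
Normalized counts (y axis, from 0) of the 7 class II genes in each of the 41 libraries, by group (x axis), with untreated NPC and WT at 1, 3, 6 and 9 weeks and PLX5622 and Control in NPC at 9 weeks; points are libraries, black lines group means and grey lines the mean ± SD, cut at 0. H2-Aa and H2-Eb1 scatter widely within groups, while the H2-DMa libraries of NPC lie under those of WT at 1, 6 and 9 weeks and those of PLX5622 lie above those of Control.

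The classical chains H2-Aa and H2-Eb1 varied widely between libraries of the same group. H2-Aa ran from 25.2 normalized counts in NPC 3w replicate A to 2068 in WT 9w replicate A, an 82.2-fold range. The 8 of 41 libraries with 1000 or more normalized counts of H2-Aa, a level chosen after the values were seen, comprised 4 of 15 untreated NPC libraries and 4 of 16 WT libraries. These were NPC 3w replicates B, C and D, NPC 9w replicate A, WT 6w replicate B and WT 9w replicates A, B and C.

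At 1 week, H2-Aa was at 820, 187, 389 and 165 normalized counts in NPC libraries, against 342, 381, 185 and 58 in WT libraries. At 3 weeks, it was at 25.2, 1606, 1439 and 1304 in NPC libraries, against 272, 309, 131 and 379 in WT libraries. The 3 high NPC libraries at 3 weeks lay above all WT libraries of that age, and the remaining one lay below all of them. At 6 weeks, H2-Aa was at 932, 709, 903 and 146 in NPC libraries, against 117, 1538, 158 and 401 in WT libraries. At 9 weeks, it was at 1324, 410 and 488 in NPC libraries, against 2068, 1055, 1035 and 442 in WT libraries. The groups overlapped at every age. A single library moved several means: the WT 6w mean of H2-Aa was 553 with replicate B and 225 when that library was left out, and the NPC 9w mean was 741 with replicate A and 449 when that library was left out.

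H2-Eb1 followed the same libraries. It was at 20.1, 846, 603 and 881 normalized counts in NPC libraries at 3 weeks, against 137, 164, 63.4 and 218 in WT libraries. The ratio of H2-Aa to H2-Eb1 within a library stayed between 1.25 and 2.72 in 40 of 41 libraries, with a median of 1.84. The exception was PLX5622 replicate 3, where it was 8.0, with H2-Eb1 at only 3.51 normalized counts. H2-Ab1, the partner chain of H2-Aa, varied less, between 1062 and 5973 normalized counts, so that the ratio of H2-Ab1 to H2-Aa ran from 2.5 to 115.

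**Figure D2:**
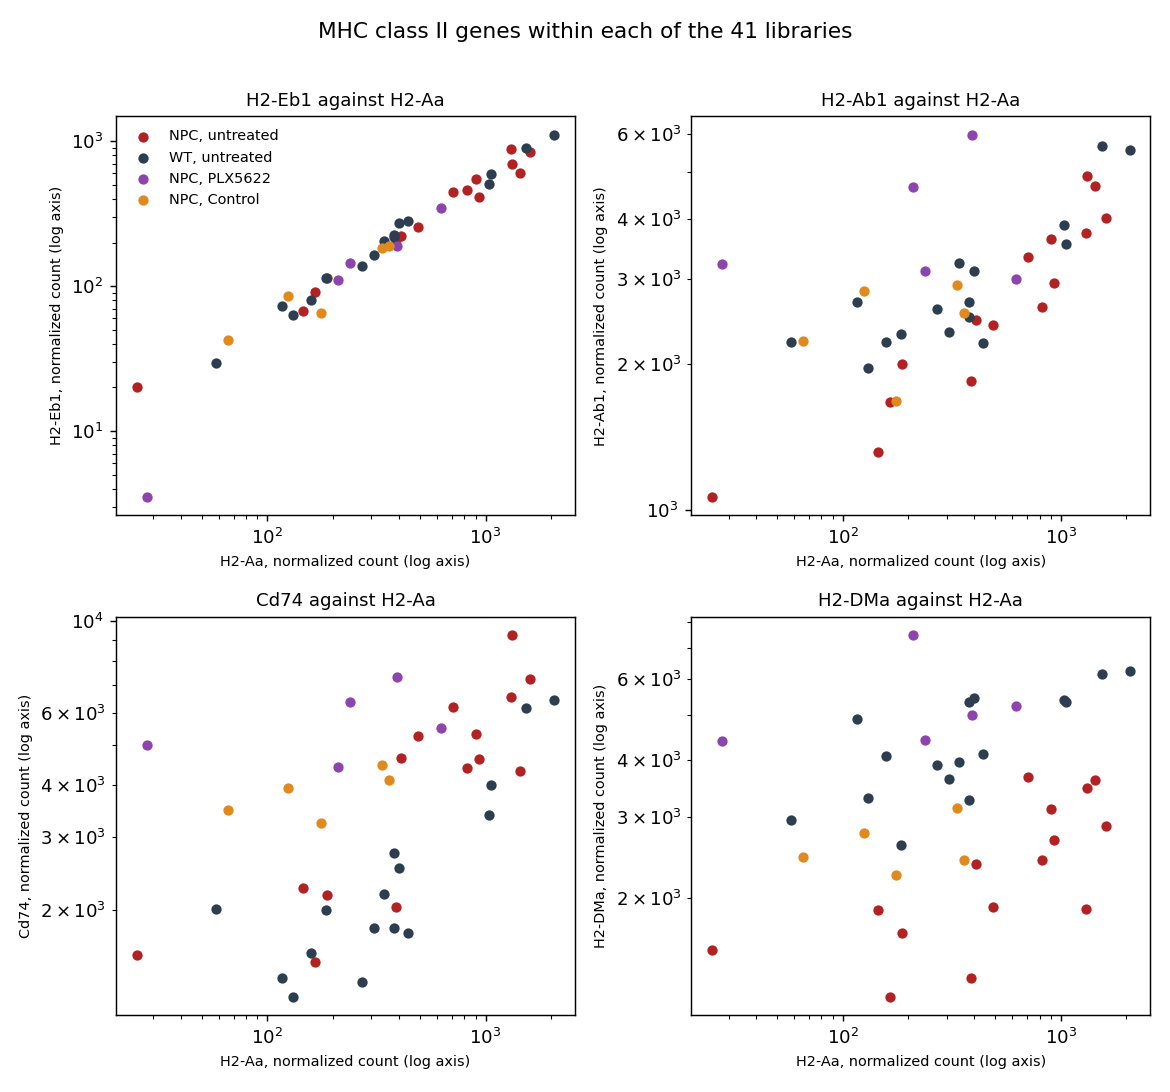
Normalized counts of H2-Eb1, H2-Ab1, Cd74 and H2-DMa (y axes, log) against H2-Aa (x axes, log) in the 41 libraries, coloured by genotype and treatment. H2-Eb1 follows H2-Aa closely, and in the H2-DMa panel most untreated NPC libraries lie under WT libraries with a like level of H2-Aa.

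Within groups, the 6 members other than Ciita moved together from library to library. The deviations of log2 values from group means correlated at r = 0.97 between H2-Aa and H2-Eb1, 0.85 between H2-Ab1 and Cd74, 0.79 between H2-Aa and H2-Ab1 and 0.64 between H2-Aa and H2-DMa, over the same 41 libraries, which share depth and scaling. For Ciita, r with the other members lay between 0.23 for H2-DMa and 0.53 for Cd74. In WT 6w, NPC 1w and NPC 9w, the library highest in H2-Aa was also the highest in the other 6 members. It was the highest in 5 others in WT 9w, in 4 in WT 3w, in 3 in NPC 3w and WT 1w, in 2 in Control, in 1 in PLX5622 and in 0 in NPC 6w. In NPC 3w and NPC 6w, the lowest library was the lowest in all 7. These values are descriptions of the libraries.

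Genes outside the 7 were ranked by how closely their deviations followed the mean of the standardized members, over 13647 genes and 41 libraries. The 8 closest were Pdyn, the precursor of dynorphin, Cyp4f18, a fatty acid hydroxylase, and Spint1, a serine protease inhibitor, with r of 0.82 each, then Serpina3f with 0.80, Aldh1a3, a retinal dehydrogenase, with 0.79, the class I gene H2-K1 with 0.78, and H2-K2 and the niacin receptor gene Hcar2 with 0.77. Ranked by the levels themselves, the 8 closest were Aldh1a3 (r = 0.74), the chemokine gene Ccl8 (0.72), Serpina3f (0.71), Gpr108 (0.67), the transcription factor gene Xbp1 (0.65), and Lpxn, Klhl25 and the interferon-induced GTPase gene Irgm2 (0.64 each). Serpina3f reached only 18.4, Aldh1a3 31.4 and Pdyn 37.6 normalized counts in their highest library, so few reads lie behind these 3. Among the border macrophage markers, Ccl8 rose and fell with the members within groups (r = 0.77) and Mrc1 did not (r = -0.29), while Cd163, Lyve1 and Cd209f reached at most 37.7, 37.1 and 18.5 normalized counts. Among monocyte and neutrophil markers, Ly6c2 had r = 0.52 and a median of 7.67 normalized counts. T and NK cell markers summed to between 10.4 and 274 normalized counts, endothelial markers to between 399 and 1934 and B cell markers to between 430 and 2200. The part of such cells in the class II level of single libraries was not tested.

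Between genotypes, no classical chain passed the test at any age. The test was limma on log2(normalized count + 1), two-sided, with p adjusted by the Benjamini-Hochberg method over all genes tested and a threshold of 0.05. The log2 change of H2-Aa in NPC against WT was 0.70 ± 0.96 (SE) at 1 week, 1.06 ± 0.96 at 3 weeks, 0.73 ± 0.96 at 6 weeks and -0.64 ± 1.04 at 9 weeks. At 3 weeks the fold was 2.08 with a 95% interval of 0.531 to 8.14, and the limma adjusted p was 0.427. This value turned on a single library: without NPC 3w replicate A the log2 change was 2.502 for H2-Aa and 2.518 for H2-Eb1, with limma adjusted p of 0.0122 and 0.0146. DESeq2 on recovered reads put H2-Eb1 at 3 weeks at an adjusted p of 0.05, just inside the threshold before rounding. H2-Ab1 had log2 changes of -0.34 at 1 week, 0.30 at 3 weeks, -0.29 at 6 weeks and -0.23 at 9 weeks, with an SE of 0.37 at the first 3 ages and 0.40 at 9 weeks.

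**Figure D3:**
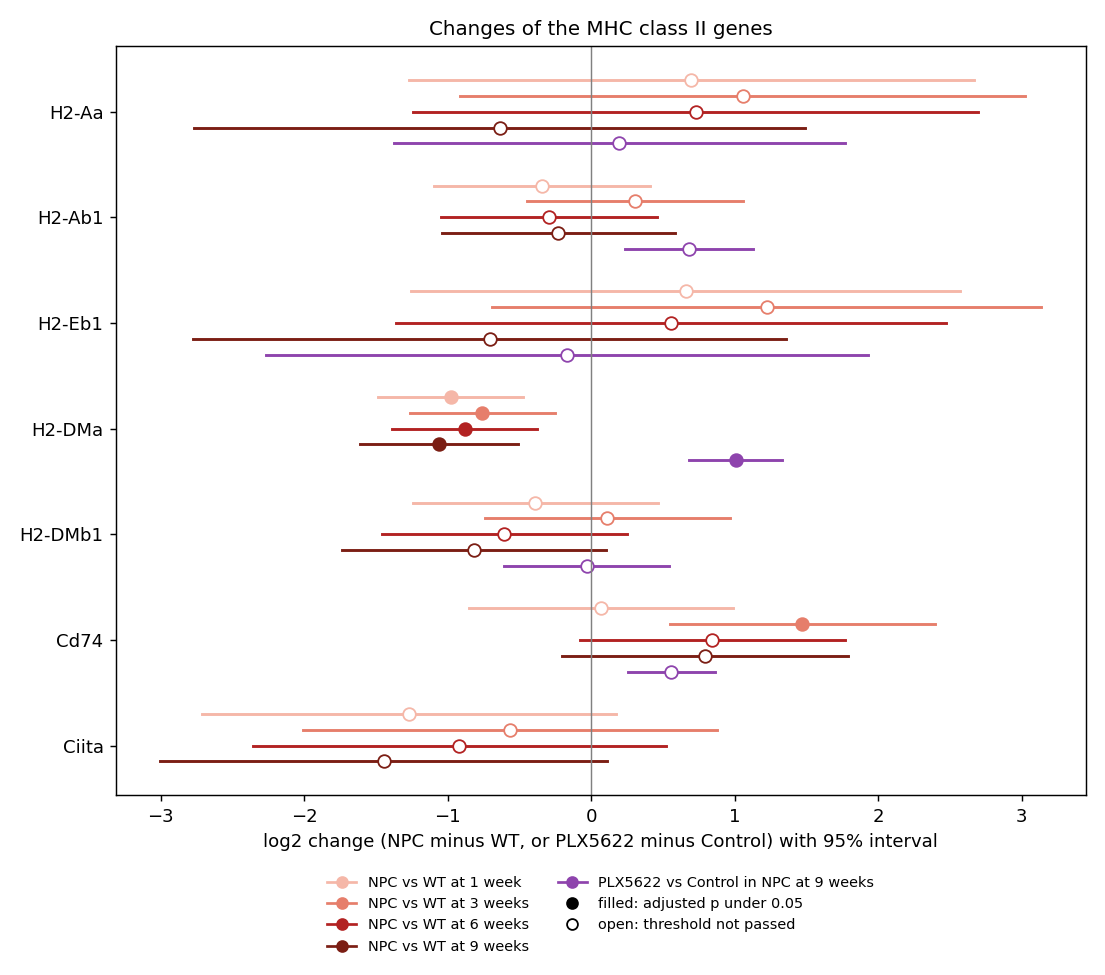
Log2 changes (x axis) of the 7 class II genes (y axis) in NPC against WT at 1, 3, 6 and 9 weeks and in PLX5622 against Control, with 95% intervals; filled points passed an adjusted p of 0.05, open points did not. H2-DMa is the gene with filled points in all 5 comparisons, at -0.98, -0.76, -0.88 and -1.06 for NPC and at 1.01 for PLX5622, and Ciita was not tested in the PLX5622 arm.

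H2-DMa was the only member to pass in NPC against WT at all 4 ages, and it fell at each. At 1 week it was at 2417, 1678, 1340 and 1215 normalized counts in NPC libraries, against 3955, 3277, 2611 and 2952 in WT libraries, with no overlap. It was the only member of the 7 tested that passed, where 1.45% of all 14046 genes did. Its log2 change was -0.98 ± 0.25 (SE), a fold of 0.507 (95% interval 0.357 to 0.721), with a limma adjusted p of 0.0373. This call lies near the threshold. By the check on deviations, replicate letters paired the libraries at this age, and with a replicate block the adjusted p was 0.0509. It was 0.0503 with no filter on low genes and 0.0546 with edgeR. Without WT replicates A, B or D it was 0.167, 0.0935 and 0.0589, and without NPC replicates B, C or D it was 0.0685, 0.127 and 0.183.

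At 3 weeks H2-DMa was at 1540, 2876, 3617 and 1896 normalized counts in NPC libraries, against 3895, 3632, 3298 and 5338 in WT libraries. NPC replicate C overlapped WT replicate C. Here the log2 change was -0.76 ± 0.25 (limma adjusted p = 0.0252). With H2-DMa lower and Cd74 higher, 2 of 7 members passed at this age, and 26.9% of all genes did. In a fit limited to the libraries of this age the adjusted p was 0.129. It was 0.0514 and 0.0838 without WT replicates A and D, and 0.0811 and 0.0618 without NPC replicates A and D.

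At 6 weeks H2-DMa was at 2678, 3677, 3126 and 1886 normalized counts in NPC libraries, against 4904, 6138, 4069 and 5457 in WT libraries, with no overlap. The log2 change was -0.88 ± 0.25 (limma adjusted p = 0.0139), and it was the only member of 7 that passed, where 15.3% of all genes did. Without NPC replicate D the adjusted p was 0.0601, and without both NPC replicates B and C, the libraries with the most oligodendrocyte and astrocyte RNA, the log2 change was -1.18 (0.0131). At 9 weeks H2-DMa was at 3473, 2367 and 1908 in NPC libraries, against 6235, 5343, 5392 and 4128 in WT libraries, again with no overlap, a log2 change of -1.06 ± 0.27 and a fold of 0.480 (0.328 to 0.701), with a limma adjusted p of 0.00503. It was the only member of 7 that passed, where 19.0% of all genes did, and without NPC replicate C the adjusted p was 0.0505.

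The summed level of 9 markers of dendritic cells, a cell type rich in class II, was lower in untreated NPC than in WT libraries at each age. Most of this sum came from Flt3, Zbtb46, Batf3 and Itgae. Xcr1, Clec9a, Cd209a, Ccr7 and Clec10a reached at most 41.9, 15.8, 11.9, 58.4 and 17.3 normalized counts in any library. At 3 weeks Cd209a, Ccr7 and Clec10a had higher means in NPC than in WT libraries, and Xcr1 and Clec9a lower ones. The summed normalized counts ran from 622 to 831 in NPC libraries at 1 week, against 912 to 1079 in WT libraries, and from 905 to 1030 in NPC libraries at 3 weeks, against 1376 to 1789 in WT libraries. They ran from 597 to 1023 in NPC libraries at 6 weeks, against 1114 to 1368 in WT libraries, and from 865 to 921 in NPC libraries at 9 weeks, against 1145 to 1561 in WT libraries. Of 7 of these markers tested, 0 passed at 1 week and 1 at each later age, lower in NPC (Flt3 at 3 weeks, Batf3 at 6 and 9 weeks), where 26.9%, 15.3% and 19.0% of all genes passed. At each age 2 of the 7 had a positive log2 change, Ccr7 among them. The 9 microglia markers moved too: of 9 tested, 0 passed at 1 week, 3 were lower and 1 higher at 3 weeks, 5 lower and 1 higher at 6 weeks and 6 lower and 0 higher at 9 weeks. They summed to between 921536 and 1099280 in NPC libraries at 6 weeks, against 1179894 to 1746450 in WT libraries, and to between 662778 and 855357 in NPC libraries at 9 weeks, against 1134832 to 1308311 in WT libraries, while the sums overlapped at 1 and 3 weeks. The part of either cell type in the H2-DMa difference was not tested.

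The genotype difference in H2-DMa showed no difference between ages that passed the test. The effect at 3 weeks minus that at 1 week was 0.22 ± 0.35 on the log2 scale and the effect at 9 weeks minus that at 1 week was -0.08 ± 0.36, with 95% intervals on the ratio of folds from 0.709 to 1.92 and from 0.564 to 1.59. For these differences of effects, no member of 7 passed with limma, while 1.06% and 3.25% of all genes did, and edgeR and DESeq2 also called none. Cd74 was the only member with an unadjusted p under 0.05 in the first of them (limma, log2 1.40 ± 0.64, adjusted p = 0.252), and no member had one in the second.

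A neighbour limits what the H2-DMa count can show. In GENCODE vM21 on GRCm38, H2-DMa lies on chromosome 17 from 34119541 to 34139101 on the plus strand, and Brd2, which encodes a bromodomain protein, lies from 34112023 to 34122634 on the minus strand, so that 3094 bases overlap. The sources used here do not give the counting tool or whether it used strand, and reads of the shared stretch cannot then be told apart. The log2 change of Brd2 in NPC against WT was -0.03 at 1 week, -0.80 at 3 weeks (limma adjusted p = 0.0187), -0.38 at 6 weeks and -0.23 at 9 weeks. At 3 weeks, Brd2 was lowest in NPC replicate C, at 1280 normalized counts, and without that library its adjusted p was 0.0983, while H2-DMa in the same library was the highest of its group.

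The beta chain H2-DMb1 did not pass at any age. It was at 559, 311 and 252 normalized counts in NPC libraries at 9 weeks, against 775, 709, 687 and 395 in WT libraries. The log2 change there was -0.82 ± 0.45 (limma adjusted p = 0.226), and it passed in a fit limited to that age (0.0399). Its near copy H2-DMb2, which encodes another DM beta chain, fell to 205 ± 64 normalized counts in NPC libraries at 6 weeks, against 321 ± 21 in WT libraries (SD, n = 4 each; limma adjusted p = 0.0371), and to 202 ± 19 in NPC libraries at 9 weeks (n = 3), against 389 ± 65 in WT libraries (n = 4; 0.00744). The call at 6 weeks was lost without any single library of the 8 other than NPC replicates B and C, with adjusted p from 0.0501 to 0.118. Reads could be split between the 2 copies in ways the counts do not show.

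Cd74 went the other way. At 3 weeks it was at 1553, 7222, 4345 and 6536 normalized counts in NPC libraries, against 1342, 1810, 1229 and 1805 in WT libraries. NPC replicates B, C and D lay above all WT libraries, and replicate A lay within them. The log2 change was 1.47 ± 0.45, a fold of 2.77 (1.46 to 5.25), with a limma adjusted p of 0.0183. In a fit limited to this age the adjusted p was 0.0823, and it was 0.0513 without WT replicate C, 0.0606 without NPC replicate B and 0.0634 without NPC replicate C. At 1 week, Cd74 was at 4414, 2172, 2034 and 1498 in NPC libraries, against 2182, 2751, 2001 and 2006 in WT libraries. At 6 weeks it was at 4643, 6191, 5336 and 2261 in NPC libraries, against 1365, 6145, 1573 and 2530 in WT libraries. At 9 weeks it was at 9246, 4646 and 5272 in NPC libraries, against 6431, 4008, 3385 and 1761 in WT libraries. Groups overlapped at each of these ages, and the log2 changes of 0.07, 0.84 and 0.79 had limma adjusted p of 0.988, 0.222 and 0.283. At 6 weeks, WT replicate B held 6145, and without it the log2 change was 1.30 with an adjusted p of 0.0494.

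The summed level of 10 border macrophage markers was higher in NPC libraries from 3 weeks on. They summed to between 1179 and 1557 normalized counts in NPC libraries at 3 weeks, against 376 to 700 in WT libraries, to between 1044 and 1266 in NPC libraries at 6 weeks, against 436 to 628 in WT libraries, and to between 882 and 1543 in NPC libraries at 9 weeks, against 328 to 702 in WT libraries. At 1 week the sums overlapped, at 7330 to 8422 in NPC libraries, against 4425 to 9148 in WT libraries. Of 9 tested, 3 were higher and 0 lower at 3 weeks and 2 higher and 2 lower at 6 weeks. At 9 weeks 3 were higher and 0 lower. At these 3 ages 26.9%, 15.3% and 19.0% of all genes passed, and 6, 5 and 5 of the 9 markers had positive log2 changes. Mrc1, a mannose receptor, was the largest part of the sum at 3 weeks, where it averaged 991.1 normalized counts in NPC libraries and 409.5 in WT libraries. Ms4a7 and Cbr2 also rose, while Lyve1 and F13a1 fell at 6 weeks. Cd163, Lyve1, Pf4 and Cd209f had lower means in NPC than in WT libraries at 3 weeks, and F13a1, Clec4n and Ccl8 higher ones. Of the same list, Cd163, Lyve1 and Cd209f reached at most 37.7, 37.1 and 18.5 normalized counts in any library. The part of such cells in the Cd74 difference was not tested.

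Set against each other in the same library, Cd74 and H2-DMa split the genotypes at every age. The ratio of their counts ran from 1.23 to 1.83 in NPC libraries at 1 week, against 0.552 to 0.84 in WT libraries, and from 1.01 to 3.45 in NPC libraries at 3 weeks, against 0.338 to 0.498 in WT libraries. It ran from 1.2 to 1.73 in NPC libraries at 6 weeks, against 0.278 to 1.0 in WT libraries, and from 1.96 to 2.76 in NPC libraries at 9 weeks, against 0.427 to 1.03 in WT libraries. No untreated NPC library overlapped the WT libraries of its age. The ratio was picked after the values were seen and is given without a test.

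**Figure D4:**
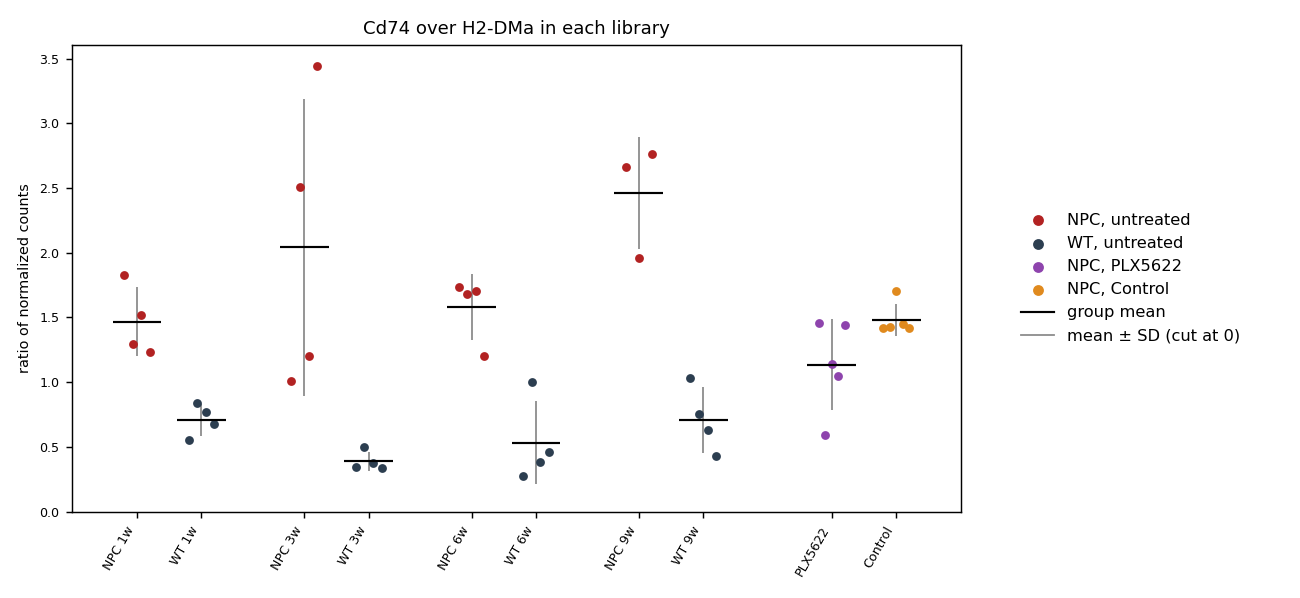
Ratio of the normalized counts of Cd74 and H2-DMa (y axis, from 0) in each library, by group (x axis); points are libraries, black lines group means and grey lines the mean ± SD. Untreated NPC libraries lie above the WT libraries of the same age throughout, and the PLX5622 libraries run from 0.591 to 1.46, against 1.42 to 1.7 in Control libraries.

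Ciita itself was close to the limit of detection, with 0 to 27 recovered reads in a library and fewer than 3 in 9 of 41 libraries. At 9 weeks it was at 11.1, 6.38 and 3.73 normalized counts in NPC libraries, against 18.4, 28.3, 14.9 and 18.4 in WT libraries, with no overlap. The log2 change was -1.45 ± 0.76 (limma adjusted p = 0.2). At 1, 3 and 6 weeks it was -1.27, -0.56 and -0.92, with overlap at each age, and none passed.

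In WT libraries, the members that passed with age were H2-DMa and H2-DMb1. At 9 weeks against 1 week, H2-DMa rose to 6235, 5343, 5392 and 4128 normalized counts, against 3955, 3277, 2611 and 2952 at 1 week, with no overlap. H2-DMb1 rose to 775, 709, 687 and 395, against 462, 230, 215 and 118, where the lowest library at 9 weeks lay under the highest at 1 week. The log2 change was 0.72 ± 0.25 for H2-DMa (limma adjusted p = 0.0245) and 1.44 ± 0.42 for H2-DMb1 (0.00819). These were 2 of 7 members, where 33.3% of all genes passed. H2-Aa and H2-Eb1 were higher in all 4 libraries at 9 weeks than in any at 1 week, with log2 changes of 2.36 ± 0.96 and 2.30 ± 0.94, and limma adjusted p of 0.0587 and 0.0581. Both passed with edgeR (0.0358 and 0.0451), with DESeq2 (0.0242 and 0.0337), with quantile normalization and in a fit limited to these ages. H2-Aa also passed without WT 9w replicate D (0.0469) and H2-Eb1 without WT 1w replicate B (0.0491). H2-DMa did not pass without WT 1w replicates C (0.076) or D (0.06), or without WT 9w replicates A (0.0748) or C (0.0525), and H2-DMb1 did not pass without WT 1w replicate D (0.0518). Markers of other cells differed between these ages too. The border macrophage markers summed to between 328 and 702 in WT libraries at 9 weeks, against 4425 to 9148 at 1 week. Of that list, Mrc1 alone averaged 223 at 9 weeks and 7263 at 1 week. Of 3 B cell markers tested 2 fell, of 7 dendritic cell markers 2 rose and 1 fell, and of 9 microglia markers 5 rose and 1 fell. The part of these cells in the age differences was not tested.

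In NPC libraries, the member that passed with age was Cd74. It rose to 9246, 4646 and 5272 normalized counts at 9 weeks, against 4414, 2172, 2034 and 1498 at 1 week, a log2 change of 1.39 ± 0.49 (limma adjusted p = 0.0389). It was 1 of 7 members, where 22.4% of all genes passed. The adjusted p lay between 0.0508 and 0.187 without any of NPC 1w replicates B, C and D and NPC 9w replicates A, B and C, and at 0.0163 without NPC 1w replicate A, when H2-DMa (0.0277) and H2-DMb1 (0.0233) passed as well. With no filter on low genes it was 0.0522. H2-DMa changed by 0.64 ± 0.27 with age in NPC (adjusted p = 0.0854) and H2-DMb1 by 1.02 ± 0.45 (0.109), and the differences of these changes between NPC and WT are the differences of effects given above.

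H2-DMa rose in microglia of PLX5622-treated NPC mice. It was at 5003, 7484, 4390, 5250 and 4423 normalized counts in PLX5622 libraries, against 2769, 3135, 2415, 2248 and 2457 in Control libraries, with no overlap. The log2 change was 1.01 ± 0.15, a fold of 2.01 (1.61 to 2.52), with a limma adjusted p of 0.0103. It was the only one of 6 members tested that passed, where 0.947% of 12877 genes did. The call held in every alternative run, with adjusted p from 2e-07 with DESeq2 to 0.0477 without Control replicate 5. Without PLX5622 replicate 3, the library with the most neutrophil RNA, the log2 change was 1.07 (0.0182), and with Xist as a covariate it was 0.99 (0.0173). Among libraries with high Xist, H2-DMa was at 5003, 7484 and 4423 in PLX5622 libraries, against 2769 and 2457 in Control libraries. Among those with low Xist it was at 4390 and 5250 in PLX5622 libraries, against 3135, 2415 and 2248 in Control libraries. Brd2, the overlapping gene, changed by -0.07 ± 0.13 (adjusted p = 0.861).

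Of the other members in this arm, H2-Ab1 was higher without overlap and Cd74 with overlap, and neither passed. H2-Ab1 was at 5973, 4647, 3227, 2997 and 3115 normalized counts in PLX5622 libraries, against 2830, 2914, 2548, 1681 and 2228 in Control libraries. Its log2 change was 0.68 ± 0.21 (limma adjusted p = 0.146), and it passed with DESeq2 (0.0284). Cd74 was at 7302, 4422, 5020, 5498 and 6366 in PLX5622 libraries, against 3938, 4476, 4116, 3251 and 3484 in Control libraries, where PLX5622 replicate 2 lay just under the highest Control library. Its log2 change was 0.56 ± 0.14 (adjusted p = 0.0842), and it passed with array weights (0.034) and with DESeq2 (0.00757). H2-Aa was at 392, 211, 28.1, 622 and 238 in PLX5622 libraries, against 125, 336, 361, 176 and 66.1 in Control libraries, with full overlap, and its log2 change was 0.20 ± 0.73. H2-Eb1 (-0.17 ± 0.97) and H2-DMb1 (-0.03 ± 0.27) did not pass. Ciita failed the filter on low genes and was not tested, with 4, 0, 14, 6 and 5 recovered reads in PLX5622 libraries, against 3, 2, 2, 1 and 0 in Control libraries.

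H2-DMb2, singled out here after its values were seen, was at 388, 347, 259, 392 and 424 normalized counts in PLX5622 libraries, against 61.2, 176, 234, 246 and 148 in Control libraries, without overlap and with a limma adjusted p of 0.118. Markers of other macrophages moved in the same arm. The 10 border macrophage markers summed to between 1257 and 3166 in PLX5622 libraries, against 932 to 1214 in Control libraries. Ms4a7 was at 1014, 547, 945, 1604 and 1120 in PLX5622 libraries, against 247, 439, 426, 544 and 206 in Control libraries, and rose 2.82-fold (limma adjusted p = 0.0417). Of 6 border macrophage markers tested, 1 was higher and 0 lower, where 0.947% of all genes passed. Mrc1 averaged 657 ± 141 in PLX5622 libraries, against 566 ± 130 in Control libraries (SD, n = 5 each), with overlap. The 9 microglia markers summed to between 400782 and 713964 in PLX5622 libraries, against 559110 to 764028 in Control libraries. Of 9 microglia markers tested, 1 was lower and 0 higher, against the same 0.947% of all genes. Dendritic cell markers summed to between 586 and 740 in PLX5622 libraries, against 694 to 912 in Control libraries, and of 6 tested none passed. The neutrophil gene Ngp was at 3264, 2104, 52584, 2396 and 151 in PLX5622 libraries, against 339, 2507, 85.1, 793 and 101 in Control libraries. Of 9 monocyte and neutrophil markers tested, none passed and all 9 had positive log2 changes, with a median of 2.83, and they summed to between 675 and 87385 in PLX5622 libraries, against 275 to 4551 in Control libraries. The part of these cells in the H2-DMa difference was not tested.

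Control and untreated NPC libraries at 9 weeks belong to different arms, so treatment label and arm cannot be told apart. H2-Aa was at 125, 336, 361, 176 and 66.1 normalized counts in Control libraries, against 1324, 410 and 488 in untreated NPC libraries, without overlap. Its log2 change was -1.85 ± 1.01 (limma adjusted p = 1). H2-Eb1, Cd74 and Ciita were also lower in Control libraries without overlap, with log2 changes of -1.82, -0.67 and -1.75, and none passed (limma adjusted p = 1 each). H2-DMa was at 2769, 3135, 2415, 2248 and 2457 in Control libraries, against 3473, 2367 and 1908 in untreated NPC libraries, with overlap. The share of all genes without overlap between these groups was not counted, and the members are not separate observations of the libraries. No member of 7 passed, and 0% of 14312 genes did with limma, where 598 had an unadjusted p under 0.05, among them Ciita of the members. edgeR called 0 genes and DESeq2 called 1, not a member, and by each of these tools 4 members had an unadjusted p under 0.05.

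The genes around the 7 moved on both sides of the genotype difference. Of 8 loading and processing genes tested, none passed in NPC against WT at 1 week. At 3 weeks 2 were higher and 1 lower, at 6 weeks 1 was higher and 3 lower, and at 9 weeks 1 was higher and 1 lower, where 26.9%, 15.3% and 19.0% of all genes passed, shares against which the counts of each list below are to be read. Without NPC 3w replicate C, 1 was higher and 1 lower at 3 weeks, and with NPC 6w replicates B and C both left out, 1 was higher and 2 lower at 6 weeks. Ctsl, a cathepsin that trims Cd74 in thymic epithelium, rose at 3, 6 and 9 weeks (log2 changes of 1.12, 0.88 and 0.89), to 42020 ± 15490 normalized counts in NPC libraries at 3 weeks, against 18540 ± 1809 in WT libraries (SD, n = 4 each). Ctss, the main cathepsin for Cd74 in dendritic and B cells, rose by 0.53 at 3 weeks (limma adjusted p = 0.0442), a call lost without NPC replicate C (0.247), without NPC replicate B (0.0635) and without WT replicates A, B or C (0.1, 0.0581 and 0.123). H2-Ob, the beta chain of the DM inhibitor H2-DO, fell at 3 weeks (log2 change -0.83, limma adjusted p = 0.0299) and at 6 weeks (-1.06, 0.00997), and the call at 3 weeks was lost without WT replicates A or D or NPC replicates B or D (0.0698 to 0.0772).

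All 4 genes listed for class II turnover passed at 3, 6 and 9 weeks. March1, a ubiquitin ligase that sends surface class II to lysosomes, fell to 2467 ± 268 normalized counts in NPC libraries at 3 weeks, against 4513 ± 927 in WT libraries. Il10ra, a receptor chain for interleukin 10, which raises March1 in human monocytes, fell to 24050 ± 3579 in NPC libraries at 3 weeks, against 40960 ± 2436 in WT libraries (SD, n = 4 each). Cd83, which shields class II from March1, rose at 3, 6 and 9 weeks, with log2 changes of 1.32, 1.17 and 1.09, and March8, a relative of March1, rose with log2 changes of 0.74, 0.81 and 1.09. At 9 weeks, March1 did not pass without NPC replicate A (limma adjusted p = 0.0671). With NPC 6w replicates B and C both left out, 2 were higher and 1 lower at 6 weeks. None of the 4 passed at 1 week.

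Of 7 genes for the promoter-binding complex, Creb1, whose protein binds beside the X box, fell at 3 weeks (log2 change -0.68, limma adjusted p = 0.0191) and Rfx5, the DNA-binding subunit of RFX, fell at 9 weeks (-0.43, 0.0376), and none passed at 1 or 6 weeks. Creb1 did not pass without WT replicates A (0.0625) or C (0.0612) or NPC replicate C (0.0775), and Rfx5 did not pass without WT replicates B (0.105) or C (0.121) or NPC replicates A (0.2) or C (0.125). Of 8 interferon gamma signalling genes, Ifngr1, the ligand-binding receptor chain, fell at 6 and 9 weeks (-0.89 and -0.72). At 3 weeks Irf1 rose (0.47) and Irf2 fell (-0.53). Irf2 did not pass without NPC replicate C (0.0886). Of 4 co-stimulation genes, Cd40 rose at 3 and 6 weeks, to 28.6 ± 18.8 normalized counts in NPC libraries at 3 weeks, against 5.01 ± 3.20 in WT libraries (SD, n = 4 each; 0.0324), a call lost without WT replicates B, C or D or NPC replicates B or C (0.0546 to 0.0947) and at 6 weeks without WT replicate A (0.069). With NPC 6w replicates B and C both left out, none of the 4 co-stimulation genes passed at 6 weeks.

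Genes of MHC class I, which shows peptides to CD8+ T cells, moved mostly upward in NPC against WT. Of 9 listed, 7 were higher and 1 lower at 3 weeks, 4 higher and 0 lower at 6 weeks, and 4 higher and 1 lower at 9 weeks, and their median log2 change was 0.89, 0.42 and 0.48. The medians over the 7 class II members were 0.30, -0.29 and -0.71, and over all genes tested -0.04, -0.02 and 0.03. H2-K1, a classical class I heavy chain, rose to between 19500 and 35670 normalized counts in NPC libraries at 3 weeks, against 6252 to 8113 in WT libraries, and its log2 change was 2.05, 2.11 and 2.20 at 3, 6 and 9 weeks. H2-D1, the other such chain, rose 4.76-fold, 4.31-fold and 5.30-fold at these ages, and B2m, their shared light chain, rose 2.36-fold, 1.97-fold and 2.08-fold. When NPC 3w replicate C was left out, 5 were higher and 0 lower at 3 weeks, and with NPC 6w replicates B and C both left out, 2 were higher and 1 lower at 6 weeks. The call of Nlrc5, the transactivator of class I genes, was lost without any of 6 single libraries at 3 weeks (limma adjusted p from 0.0732 to 0.122), 4 at 6 weeks (0.0514 to 0.11) and 3 at 9 weeks (0.0688 to 0.0933). A difference between the lists was not tested. In PLX5622 against Control, and in Control against untreated NPC, none of the genes of these 6 lists passed.

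With age, 4 loading and processing genes rose and 2 fell in WT, and 5 rose and 1 fell in NPC, where 33.3% and 22.4% of all genes passed. H2-Ob rose by 1.53 in WT libraries at 9 weeks against 1 week and by 1.94 in NPC libraries (limma adjusted p = 0.000104 and 1.95e-05). Ctss rose by 1.53 in NPC libraries (2.76e-06), with H2-Oa, the alpha chain of H2-DO (1.26, 0.000193), and in WT libraries H2-DMb2 rose by 1.23 (0.000112) and Ctsl fell (-1.09, 9.79e-06). H2-Ea-ps, singled out here after its values were seen, is the alpha partner of H2-Eb1 and carries a pseudogene name since C57BL/6 mice do not make it, while BALB/c mice do. It was at 91.9 ± 40.4 normalized counts in WT libraries at 9 weeks, against 7.71 ± 5.22 at 1 week (SD, n = 4 each; log2 change 3.47, limma adjusted p = 0.000598), and at 50.9 ± 21.7 in NPC libraries at 9 weeks (n = 3), against 10.1 ± 14.2 at 1 week (n = 4; 2.99, 0.00731). Of the other lists, transcription genes had 2 higher and 1 lower in WT and 0 of either in NPC, and in neither genotype did a gene of interferon gamma signalling, turnover, co-stimulation or class I fall. In WT and in NPC, 4 and 4 interferon gamma signalling genes rose, 2 and 3 turnover genes, 2 and 1 co-stimulation genes and 2 and 6 class I genes. Some of these age calls were lost without single libraries. In NPC the limma adjusted p reached 0.192 for interferon gamma signalling, 0.133 for class I and 0.0888 for loading and processing genes. In WT, 1 transcription gene lost its call (0.0992 and 0.054). Rfx5 rose by 0.95 in WT (2.98e-06), Il10ra by 1.18 (7.03e-08), Irf1 by 0.68 (5.54e-05) and Icosl, a ligand that co-stimulates T cells, 2.83-fold (5e-07), and Cd83 rose by 1.05 in NPC (1.93e-05). The highest WT library of H2-Ea-ps at 9 weeks was replicate D, the library lowest in H2-Aa and H2-Eb1.

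**Figure D5:**
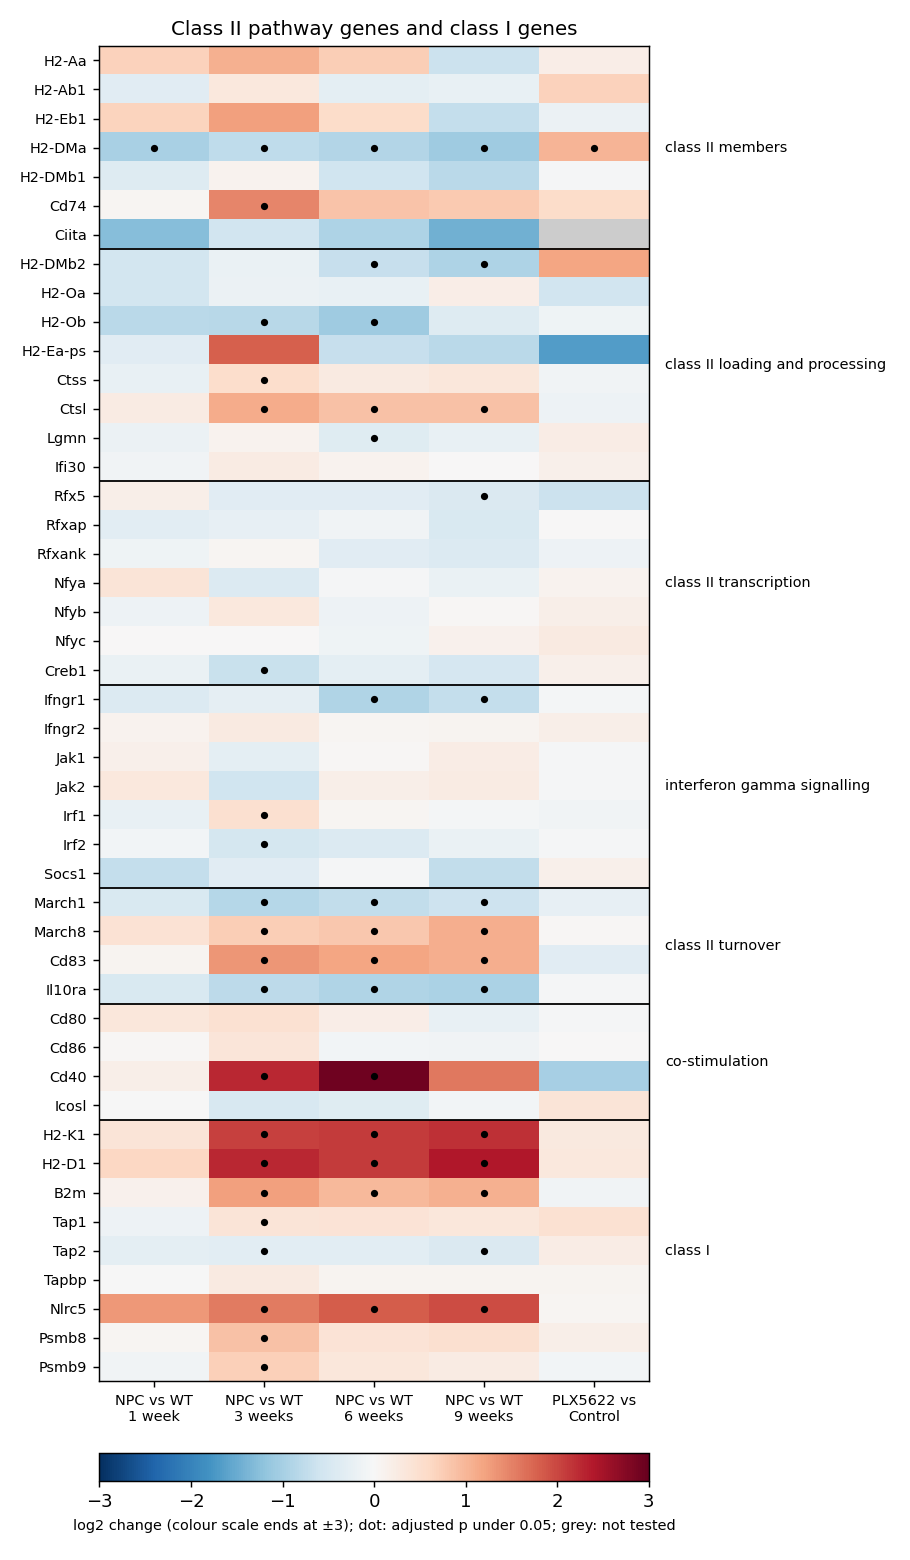
Log2 changes (colour, from -3 in blue to 3 in red) of the 7 class II members and of genes of the 6 lists (rows) in NPC against WT at 1, 3, 6 and 9 weeks and in PLX5622 against Control (columns); dots mark an adjusted p under 0.05 and grey a gene not tested. H2-DMa carries a dot in all 5 columns, the 4 turnover genes and H2-K1, H2-D1, B2m and Nlrc5 carry one at 3, 6 and 9 weeks, and no list gene carries one at 1 week or in the PLX5622 arm.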

How the data were processed

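Per the labels, about 1 ng of RNA from CD11b+Tmem119+ cerebellar cells was amplified with SMART-seq v4 and sequenced on an Illumina NovaSeq as paired reads. The authors deposited size-factor normalized counts, here called signal, with 1 column per library. The submitters' processing notes name FastQC 0.11.4, STAR 2.5.1b, DESeq2 and mm9. The counting tool, its strand setting and the annotation are not given in the sources used here. All values of a library were whole multiples of 1 step (tolerance 1e-06), which gave whole reads, 23159093 to 40509603 in a library. Without molecular identifiers, depth limits the counting error alone.

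Values were tested as log2(value + 1) with limma 3.58.1 in R 4.3.3 (trend and robust options, two-sided), so folds of low genes are understated. A gene was tested where 3 or more libraries of the fit reached 10 normalized counts, and p-values were adjusted by the Benjamini-Hochberg method over all genes tested, with a threshold of 0.05. The genotype and age comparisons share 1 fit of 31 libraries (14046 genes, 23 residual degrees of freedom), and with it 1 estimate of the spread. PLX5622 against Control used its 10 libraries (12877 genes, 8 degrees of freedom). Control against untreated NPC used all 41 libraries (14312 genes, 31 degrees of freedom). Comparisons of NPC at 9 weeks share libraries. The procedure was tested on simulated data.

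The members and gene lists were chosen with earlier results of these data known. All members are named, and from each list up to 3 genes per comparison with the smallest adjusted p among those that passed; the last of the 4 turnover genes, H2-DMb2 in the PLX5622 arm and H2-Ea-ps were named after their values were seen. The lists were loading and processing, transcription, interferon gamma signalling, turnover, co-stimulation and class I, and markers of 9 cell types; 2 listed genes were tested with the rest but are not reported here. Whether replicate letters pair NPC with WT was checked by correlating deviations from the group means. At 1 week r was 0.155 to 0.193 over the 4 letters, above the limit of 0.1 set for pairing, and pairing there comes from the data alone.

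Alternatives were pseudocounts of 0.5 and 5, no filter, a filter at 50, array weights, quantile normalization, rescaling to equal totals, recovered reads tested with edgeR 4.0.16 and with DESeq2 1.42.0, a fit limited to the groups compared, a replicate block and leaving out each library. Added after seeing the data were an Xist covariate, leaving out NPC 6w replicates B and C together, and list counts and list calls without single libraries. Columns not used: 0.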

Additional observations from a re-analysis of the deposited data

Results flagged for a closer look

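Single libraries were compared with the rest of their group for the 7 members, in 63 sets of 4 or 5 libraries, and 4 libraries stood far from the others; chance alone marks about 1 in 20 sets. H2-DMa in PLX5622 replicate 2 was at 7484 normalized counts, with the other 4 libraries between 4390 and 5250, and without it the log2 change of PLX5622 against Control was 0.88 (limma adjusted p = 0.0181). Ciita in NPC 1w replicate A was at 15.8 normalized counts, with the others between 2.14 and 2.83, and that library was the highest of its group in all 7 members. Ciita in NPC 3w replicate B was at 16.0 (others 3.35 to 5.24), in the library highest in H2-Aa and Cd74 of its group. Ciita in WT 1w replicate B was at 25.4 (others 7.41 to 9.36), in the library highest in H2-Aa, H2-Eb1 and Cd74 of its group. These Ciita values rest on 15, 15 and 23 recovered reads.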

How the results depend on the processing

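Over 69 member results and 1409 alternatives, 1351 kept their side of the threshold, 33 lost the call, 25 gained it and 0 reversed a call. Among the 1351, 41 changed sign with neither value passing. The number of members that passed was 1 for NPC against WT at 1 week and became 0 with no filter, with edgeR and with the replicate block, and 0 to 1 when leaving out single libraries. At 3 weeks it was 2, became 0 in a fit limited to the groups compared, and ran from 1 to 3 when leaving out single libraries. At 6 weeks it was 1 and ran from 0 to 2 when leaving out single libraries. At 9 weeks it was 1, became 2 in the limited fit and 2 with the replicate block, and ran from 0 to 1 when leaving out single libraries. For PLX5622 against Control it was 1 and became 2 with array weights, 3 with DESeq2 and 2 with the replicate block (H2-Ab1, limma adjusted p = 0.0169). For WT at 9 weeks against 1 week it was 2 and became 4 with quantile normalization, edgeR, DESeq2 and the limited fit, and ran from 0 to 3 when leaving out single libraries. For NPC at 9 weeks against 1 week it was 1 and became 0 with no filter, 2 with quantile normalization, 3 with array weights and 0 with the replicate block (Cd74, limma adjusted p = 0.0538), and ran from 0 to 3 when leaving out single libraries. The causes were not tested.

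The number of all genes that passed also moved: 3777 at 3 weeks became 769 in the limited fit and 2057 without NPC 3w replicate C, 204 at 1 week became 87 without WT 1w replicate A, and 122 for PLX5622 became 605 with DESeq2. Same-letter residuals correlated between -0.311 and 0.207 at 3, 6 and 9 weeks and between -0.148 and 0.267 by number in the PLX5622 arm, so the block there adjusts for a number only. No paired analysis was possible for Control against untreated NPC because their labels use different kinds of replicate names. Depth limits Ciita in all groups and H2-Eb1 in PLX5622 replicate 3.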
